A study of Mus musculus with 12 samples.

Results

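The collagen genes of the mouse were followed in bulk RNA-sequencing of brains collected 14 d post-stroke. A gene was taken as a collagen gene when its symbol had the form *Col*, a number, *a* and a number, and when at least 20 reads were counted for it over all mice. All 44 such genes among the 49315 genes listed met that minimum, with 11 fibrillar, 8 basement membrane and 25 other collagen genes. The mice were CD45.1 Pep Boy recipients aged 8–12 weeks that were irradiated with the head shielded and given a competitive bone marrow (BM) transplant, made up of 10% CD45.2 cells and 90% CD45.1 cells, the latter *Tet2*+/+. The CD45.2 cells were *Tet2*+/+ in the WT group (n = 6) and *Tet2*-/- in the *Tet2*-KO group (n = 6), which models clonal hematopoiesis, the outgrowth of a blood stem cell clone that carries a driver mutation. A transient occlusion of the middle cerebral artery for 30 min followed 8–10 weeks after the transplant in every mouse. Mice without stroke were not analysed here, so the values compare the groups with each other and not with an uninjured brain. Since the host tissue and the CD45.1 cells were *Tet2*+/+ in both groups, the *Tet2* level of the brain, 132 CPM on average in WT and 131 CPM in *Tet2*-KO mice, does not check the labels. The treatment entry in the labels of the *Tet2*-KO mice names control stem cells, and the groups were taken from the titles and genotype entries.

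Collagens are triple-helical proteins of the extracellular matrix, each built from 3 chains, and the genes encode the single chains. Fibrillar collagens, with types I and III in the lead, give scar, skin and vessel walls their tensile strength. Type IV collagen forms the network of basement membranes, which in brain surround vessels and underlie the meninges and the glial limit. The other types bind to fibrils, form beaded filaments or short networks, or cross the plasma membrane. In uninjured brain fibrillar collagen is largely restricted to the meninges, the choroid plexus stroma and larger vessels, and after stroke fibroblasts and vessel-associated cells lay it down in the scar. Chains are hydroxylated and folded in the endoplasmic reticulum, trimmed and crosslinked outside the cell, bound by integrins and discoidin domain receptors, and cleaved by matrix metalloproteinases.

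Each WT mouse had 12000261 to 15340787 counted reads and each *Tet2*-KO mouse 12625047 to 21049763. The collagen genes took between 8289 and 29918 of these reads. All 12 libraries held high levels of neuronal and astrocytic marker genes, the latter between 5015 and 5656 CPM in sum over 6 genes. Levels are given as CPM, read counts brought to a common library total with the TMM scaling of edgeR, and fold changes as log2 of *Tet2*-KO over WT from edgeR's quasi-likelihood test, with p adjusted by Benjamini-Hochberg over the 20290 genes that passed its expression filter. Of the collagen genes 43 passed the filter, and *Col28a1* did not. Replicates are separate mice. In each group 1 mouse was picked out by its collagen values, but only the WT mouse stood apart from the rest. WT replicate 2 was the highest of all 12 mice in 19 of the 20 collagen genes that were lower at an unadjusted p below 0.05, and *Tet2*-KO replicate 5 lay within the WT range or above it in 19 of those 20. The counts of collagen genes, by class and in all, are therefore also given without them. *Tet2*-KO replicate 5 was not alone, since replicate 4 lay within the WT range or above it in 9 of the 20. Dixon's criterion, described below, was exceeded in 15 sets of values, 14 times by WT replicate 2 and never by *Tet2*-KO replicate 5. Standard errors are abbreviated SE. Fewer cells of a type and less RNA per cell cannot be told apart in bulk tissue.

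Most collagen genes were lower in the brains of mice with *Tet2*-KO cells, but none passed the adjusted threshold of 0.05 with edgeR. The adjusted threshold was passed by 5 of all tested genes (0.0246%), and the smallest adjusted p of a collagen gene was 0.104, for *Col24a1*. At an unadjusted p below 0.05, 20 of the 43 collagen genes were lower, 46.5% against 12.2% of all tested genes. Only *Col24a1* and *Col25a1* were higher at that level, 4.65% against 10.8% of all tested genes. The log2 fold change was below 0 in 37 of the 43, where 47.7% of all tested genes were below 0, and above 0 in 6, against 52.3%. The median was -0.30 over the collagen genes and 0.01 over all tested genes. In no collagen gene did the 6 *Tet2*-KO values lie wholly outside the WT values, a separation that 0.641% of all tested genes showed with *Tet2*-KO lower and 0.453% with *Tet2*-KO higher. In the plot of fold changes by class, *Col3a1*, *Col1a1*, *Col1a2*, *Col18a1* and *Col5a2* lie farthest to the left and *Col24a1* farthest to the right.

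**Figure D1:**
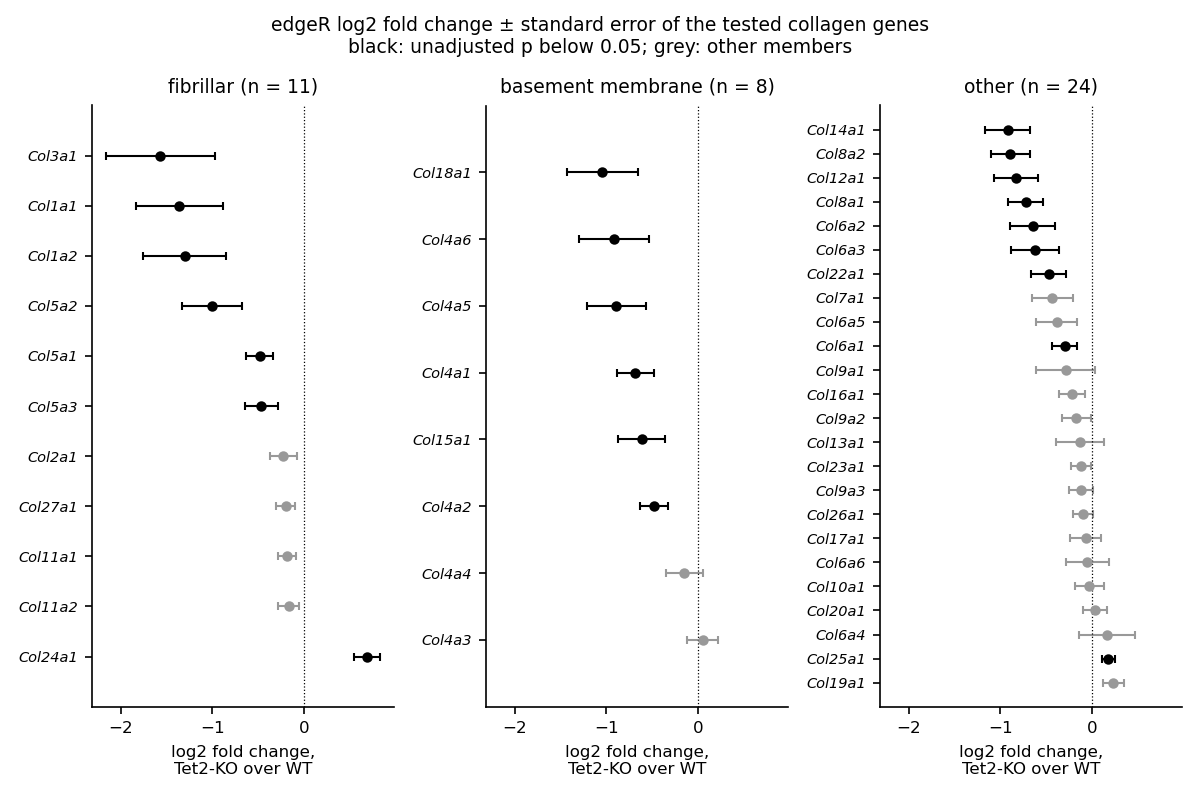
Log2 fold change of *Tet2*-KO over WT (x axis) with its standard error (bars) for the 43 tested collagen genes, sorted within 3 classes. Points in black had an unadjusted p below 0.05, with 20 below 0 and 2 above 0, and no gene passed the adjusted threshold.

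Other tests called more of them. With the DESeq2 Wald test, the test of the study, 8 collagen genes had an adjusted p below 0.05, with *Col24a1* higher and *Col8a2*, *Col12a1*, *Col4a1*, *Col8a1*, *Col14a1*, *Col5a1* and *Col4a2* lower. It called 3.55% of all genes with an adjusted p as lower and 1.02% as higher. The same test on the genes of the edgeR filter gave 8 lower and 1 higher (5.13% and 3.0% of all), and limma-voom with quality weights 14 lower and 1 higher (7.01% and 2.91% of all). With edgeR and *Tet2*-KO replicate 5 left out, 15 collagen genes passed as lower and *Col24a1* as higher, against 7.3% and 3.7% of all tested genes. At an unadjusted p below 0.05 that fit had 21 lower, against 14.6% of all tested genes, and 3 higher, against 13.4%. Replicate 5 was singled out by these same collagen values, so that fit is no independent test. With any other mouse left out, no collagen gene passed the adjusted threshold. Without WT replicate 2, no collagen gene passed the adjusted threshold, as against 0.0195% of all tested genes. At an unadjusted p below 0.05, 11 were then lower (7.92% of all tested genes) and 2 higher (7.37%). The genes no longer among the lower at that level were *Col3a1*, *Col5a3*, *Col18a1*, *Col15a1*, *Col4a6*, *Col6a1*, *Col6a2*, *Col6a3* and *Col22a1*.

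Among the fibrillar collagens, the chains of types I, III and V were lower with *Tet2*-KO cells and *Col24a1* was higher. Of the 11 genes, 6 were lower and 1 was higher by that unadjusted threshold (12.2% and 10.8% of all tested genes), with a median log2 fold change of -0.47. Without WT replicate 2, 4 were lower (7.92% of all tested genes) and the median was -0.29. Without *Tet2*-KO replicate 5, 7 were lower (14.6% of all tested genes). *Col1a1* (ENSMUSG00000001506, mm10 chr11:94936224-94953042) encodes the chain that makes up most of type I collagen and had the highest level per kb of exon of all collagen genes in both groups, 44.5 ± 17.2 CPM per kb (SD, n = 6) in WT and 17.4 ± 12.9 CPM per kb (SD, n = 6) in *Tet2*-KO mice. Its CPM was lowest at 191, had a median of 275 and was highest at 495 in WT mice, and was lowest at 40.3, had a median of 83.8 and was highest at 257 in *Tet2*-KO mice. In 5 of the 6 *Tet2*-KO mice the value lay below every WT mouse, and the exception was replicate 5 at 257. The log2 fold change was -1.36 (SE 0.473, adjusted p = 0.147 by edgeR), and it moved between -1.77 and -1.14 as each mouse was left out in turn.

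*Col1a2* (ENSMUSG00000029661, mm10 chr6:4504814-4541544), the second chain of type I collagen, ranged from 114 to 264 CPM (median 159.5) in WT mice and from 22.8 to 158 CPM (median 50.4) in *Tet2*-KO mice. *Tet2*-KO replicate 5 was again the only mouse of its group inside the WT range. Its log2 fold change of -1.30 (SE 0.452, adjusted p = 0.147 by edgeR) was close to that of its partner chain. *Col3a1* (ENSMUSG00000026043, mm10 chr1:45311538-45349706), the chain of type III collagen in vessel walls and healing tissue, had the lowest fold change of all collagen genes. It ranged from 77.0 to 207 CPM (median 118) in WT mice and from 5.39 to 116 CPM (median 25.1) in *Tet2*-KO mice, where replicate 1 was lowest and replicate 5 highest. The log2 fold change was -1.57 (SE 0.591, adjusted p = 0.163 by edgeR) and moved between -2.16 and -1.33 as each mouse was left out. The value of -2.16 was that without replicate 5 (edgeR adjusted p = 0.0294), the only such fit with an adjusted p below 0.05. An annotated gene on the same strand, *Gm47302*, shares exon sequence with *Col3a1*, so reads in the shared part are uncertain.

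Type V collagen starts type I fibrils and limits their width, and its 3 chains were lower at an unadjusted p below 0.05. *Col5a2* was at 23.5 ± 7.25 CPM (SD, n = 6) in WT and at 11.8 ± 6.29 CPM (SD, n = 6) in *Tet2*-KO mice, with a log2 fold change of -1.0 (SE 0.323, adjusted p = 0.132 by edgeR). *Col5a1* was at 41.2 ± 6.62 CPM and 29.4 ± 6.81 CPM (SD, n = 6 each), a log2 fold change of -0.49 (SE 0.148, adjusted p = 0.124 by edgeR), and *Col5a3* had one of -0.47 (SE 0.182, adjusted p = 0.160 by edgeR). In *Col5a1* and *Col5a2* 5 of 6 *Tet2*-KO mice lay below the lowest WT mouse and in *Col5a3* 4 of 6 were. The cartilage-type chains were nearer to equal, with log2 fold changes between -0.23 and -0.17 for the 4 remaining genes *Col2a1*, *Col11a1*, *Col11a2* and *Col27a1* (edgeR adjusted p between 0.250 and 0.394).

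*Col24a1* (ENSMUSG00000028197, mm10 chr3:145292472-145552011), a fibrillar collagen of low level, went the other way. It ranged from 2.48 to 3.82 CPM (median 3.08) in WT mice and from 3.60 to 5.77 CPM (median 5.19) in *Tet2*-KO mice. Here replicate 4 was the lowest of the *Tet2*-KO mice and the only value below a WT mouse, whereas replicate 5, at 4.94 CPM, lay above all WT mice. These values rest on 33 to 59 reads in a WT mouse and 63 to 111 in a *Tet2*-KO mouse. The log2 fold change was 0.69 (SE 0.141, adjusted p = 0.104 by edgeR), between 0.63 and 0.77 as each mouse was left out, and the adjusted p was 0.00547 by DESeq2 and 0.00900 by limma-voom.

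**Figure D2:**
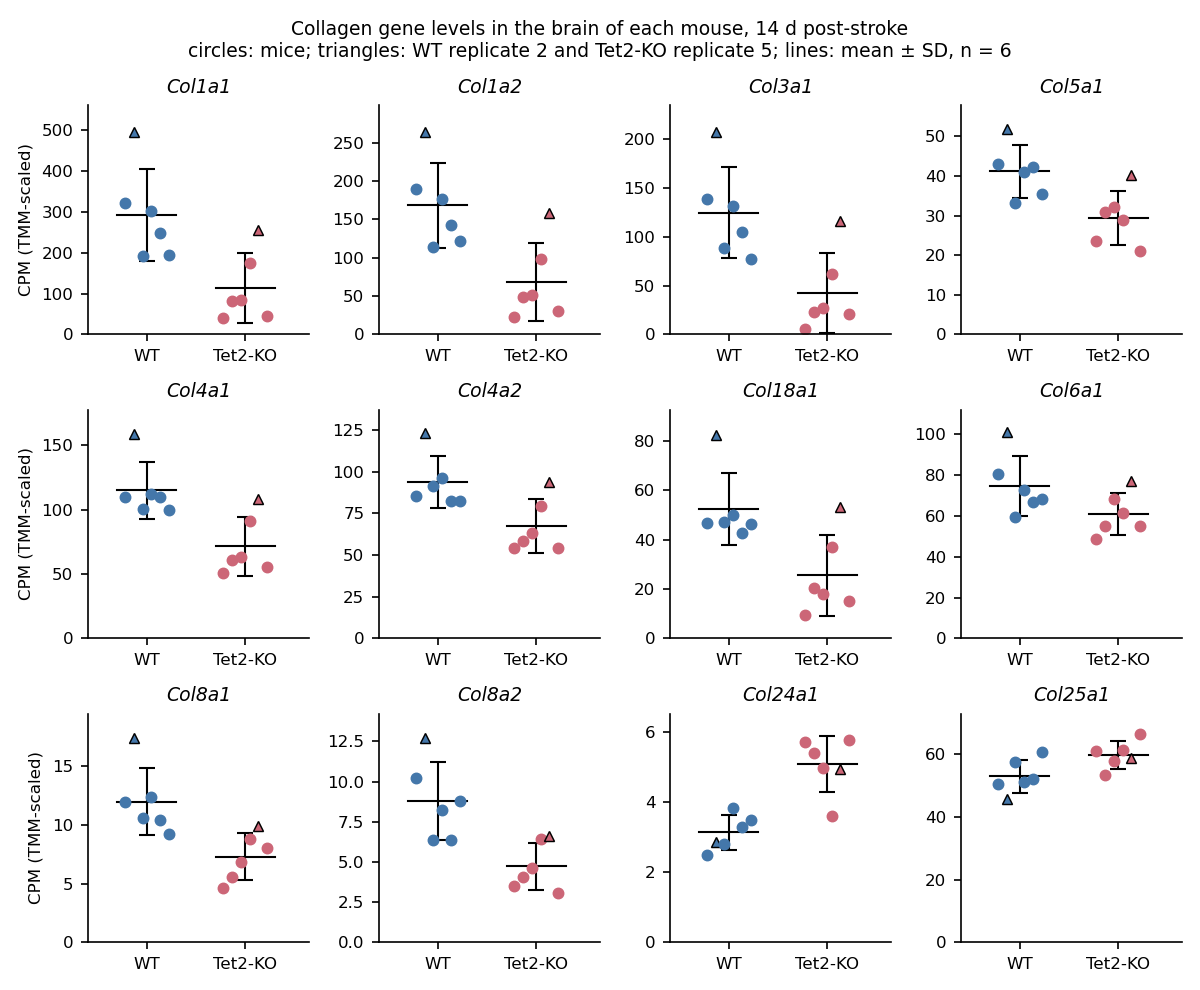
CPM (y axis, from 0) of 12 collagen genes in each of the 6 WT and 6 *Tet2*-KO mice, with mean ± SD and with WT replicate 2 and *Tet2*-KO replicate 5 drawn as triangles. *Col1a1* was highest in WT replicate 2 at 495 CPM and reached 257 CPM in *Tet2*-KO replicate 5, while *Col24a1* was at or above 3.60 CPM in the *Tet2*-KO mice and at or below 3.82 CPM in the WT mice.

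To show the sequence in front of genes that were low together and of the gene that was high, the bases before the transcription start were read from the RefSeq promoter windows (GRCm38.p6, the assembly mm10 is drawn from), which held 35 of the 44 collagen genes in 38 windows of 300 bases. *Col1a2* (chr6:4505368-4505618, plus strand) and *Col3a1* (chr1:45311288-45311538, plus strand) stand for the fibrillar genes of scar, and *Col24a1* (chr3:145292222-145292472, plus strand) for the higher gene. Each is given from 250 bases before the RefSeq start to the start base. For *Col1a2* that start, at 4505618, lies inside the gene by the coordinates given above, which begin at 4504814. Capitals mark GGGCGG, the GC box, and CCAAT in *Col1a2*, TATAAA in *Col3a1* and TGACGTCA, the cAMP response element, in *Col24a1*, all searched on both strands.
Col1a2: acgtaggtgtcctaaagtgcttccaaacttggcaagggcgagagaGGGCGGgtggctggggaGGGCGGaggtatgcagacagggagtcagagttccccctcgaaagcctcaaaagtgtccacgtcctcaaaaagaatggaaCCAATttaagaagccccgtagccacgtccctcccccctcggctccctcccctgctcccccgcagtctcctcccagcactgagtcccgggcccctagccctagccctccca
Col3a1: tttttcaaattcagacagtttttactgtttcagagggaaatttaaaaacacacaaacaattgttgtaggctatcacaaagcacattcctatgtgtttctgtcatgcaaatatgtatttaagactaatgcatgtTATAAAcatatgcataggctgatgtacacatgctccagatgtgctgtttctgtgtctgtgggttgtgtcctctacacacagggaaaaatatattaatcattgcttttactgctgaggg
Col24a1: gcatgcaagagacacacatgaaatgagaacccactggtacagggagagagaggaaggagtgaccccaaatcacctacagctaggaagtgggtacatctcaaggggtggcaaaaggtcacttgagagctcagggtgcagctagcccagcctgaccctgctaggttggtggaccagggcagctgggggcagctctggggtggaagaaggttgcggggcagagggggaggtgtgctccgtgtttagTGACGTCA

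GGGCGG stood in 23 of the 38 collagen windows (60.5%) and in 35.7% of all 32851 windows, and CCAAT in 13 (34.2%) and 37.4%. TATAAA stood in 5 of the collagen windows (13.2%) and in 13.6% of all. TGACGTCA stood in 1 collagen window, that of *Col24a1*, and in 1.79% of all. These matches describe the letters in the windows and no binding was measured here.

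In the basement membrane class, the abundant chains of type IV collagen and the multiplexins XV and XVIII were lower with *Tet2*-KO cells, and the rare chains *Col4a3* and *Col4a4* had log2 fold changes near 0. At an unadjusted p below 0.05, 6 of the 8 genes were lower and none was higher (12.2% and 10.8% of all tested genes), and the median log2 fold change was -0.65. Without WT replicate 2, 3 of the 8 were lower (7.92% of all tested genes), *Col4a1*, *Col4a2* and *Col4a5*, with a median of -0.48. Without *Tet2*-KO replicate 5, 5 were lower (14.6% of all tested genes). *Col4a1* (ENSMUSG00000031502, mm10 chr8:11198423-11312826) and *Col4a2* (ENSMUSG00000031503, mm10 chr8:11312805-11449287) encode the chains of the type IV trimer found in nearly every basement membrane, and held ranks 3 and 4 per kb of exon in WT mice. *Col4a1* ranged from 99.3 to 159 CPM (median 109.7) in WT mice and from 50.5 to 108 CPM (median 62.1) in *Tet2*-KO mice, with 5 of 6 *Tet2*-KO mice below the lowest WT mouse. Its log2 fold change was -0.68 (SE 0.199, adjusted p = 0.123 by edgeR). *Col4a2* ranged from 82.4 to 124 CPM (median 88.4) in WT and from 54.0 to 93.8 CPM (median 60.7) in *Tet2*-KO mice, again with replicate 5 as the only *Tet2*-KO mouse in the WT range, and had a log2 fold change of -0.48 (SE 0.153, adjusted p = 0.128 by edgeR).

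*Col4a5* and *Col4a6*, on the X chromosome, encode chains that join in the basement membranes of the meninges and smooth muscle. *Col4a5* ranged from 18.6 to 33.8 CPM (median 20.2) in WT and from 5.20 to 21.9 CPM (median 9.99) in *Tet2*-KO mice, a log2 fold change of -0.89 (SE 0.320, adjusted p = 0.151 by edgeR). *Col4a6* was at 13.5 ± 4.12 CPM and 7.19 ± 4.76 CPM (SD, n = 6 each), a log2 fold change of -0.91 (SE 0.381, adjusted p = 0.188 by edgeR). WT replicate 2 was the highest mouse in both, at 33.8 and 21.6 CPM. *Col4a3* and *Col4a4*, which meet *Col4a5* in the kidney filter and are named here after their values were seen, were at 1.76 ± 0.292 and 3.43 ± 0.935 CPM in WT mice (SD, n = 6) and had log2 fold changes of 0.05 (SE 0.164, adjusted p = 0.910 by edgeR) and -0.15 (SE 0.197, adjusted p = 0.693 by edgeR).

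The type IV genes lie head to head in pairs. By the starts in the GENCODE M21 annotation, *Col4a1* and *Col4a2* overlap by 22 bases, *Col4a4* and *Col4a3* (chromosome 1) are 71 bases apart and *Col4a6* and *Col4a5* are 1308 bases apart. The bases between the starts of the closer pairs, and those before each start of the third pair, are printed to show how near the starts lie. The bases from the *Col4a2* start to the *Col4a1* start (chr8:11312805-11312826) are on the plus strand, and the bases between the *Col4a4* and *Col4a3* starts (chr1:82586850-82586920) on the minus strand, both in capitals throughout. *Col4a5* (chrX:141475169-141475419, plus strand) and *Col4a6* (chrX:141474076-141474326, minus strand) are given from 250 bases before the RefSeq start to the start base, with GGGCGG and CCAAT, read on either strand, in capitals.
Col4a2 and Col4a1: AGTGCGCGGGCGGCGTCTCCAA
Col4a4 and Col4a3: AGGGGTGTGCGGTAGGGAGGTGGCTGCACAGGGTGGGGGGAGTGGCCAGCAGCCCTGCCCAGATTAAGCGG
Col4a5: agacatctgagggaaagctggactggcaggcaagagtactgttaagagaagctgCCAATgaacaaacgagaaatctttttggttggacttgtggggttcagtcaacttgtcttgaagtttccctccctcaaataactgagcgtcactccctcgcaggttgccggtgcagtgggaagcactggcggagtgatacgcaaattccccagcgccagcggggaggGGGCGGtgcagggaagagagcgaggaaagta
Col4a6: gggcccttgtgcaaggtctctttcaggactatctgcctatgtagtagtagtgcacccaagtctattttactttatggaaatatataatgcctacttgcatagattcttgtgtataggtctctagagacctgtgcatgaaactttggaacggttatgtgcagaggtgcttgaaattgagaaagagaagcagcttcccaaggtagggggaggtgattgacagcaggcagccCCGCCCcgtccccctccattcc

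The strand setting of the authors' counting is not given in the sources used here, so reads from the overlap of *Col4a1* and *Col4a2* cannot be assigned to a strand with certainty. The same holds for parts of *Col5a1*, *Col15a1*, *Col22a1*, *Col4a3* and *Col9a3*, whose exons overlap another gene annotated on the opposite strand. *Col4a2* has such an overlap with *Gm15419* as well. The fold changes within a pair were -0.68 and -0.48 for *Col4a1* and *Col4a2*, -0.89 and -0.91 for *Col4a5* and *Col4a6*, and 0.05 and -0.15 for *Col4a3* and *Col4a4*.

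*Col18a1* and *Col15a1* encode multiplexins, collagens with heparan or chondroitin sulfate chains that sit in and beneath basement membranes. *Col18a1* (ENSMUSG00000001435, mm10 chr10:77052178-77166548) ranged from 42.6 to 82.2 CPM (median 46.9) in WT mice and from 9.29 to 53.3 CPM (median 19.2) in *Tet2*-KO mice. All *Tet2*-KO mice but replicate 5 were below every WT mouse, and the log2 fold change of -1.04 (SE 0.383, adjusted p = 0.157 by edgeR) was the lowest of the class. *Col15a1* was at 27.9 ± 11.4 CPM in WT and 18.2 ± 5.36 CPM in *Tet2*-KO mice (SD, n = 6 each), a log2 fold change of -0.62 (SE 0.258, adjusted p = 0.188 by edgeR) that moved to -0.36 at the smallest when each mouse was left out. In this gene *Tet2*-KO replicate 4, at 27.8 CPM, and not replicate 5, was the mouse inside the WT range.

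Of the other collagens, 8 of the 24 tested genes were lower and 1 was higher at an unadjusted p below 0.05 (12.2% and 10.8% of all tested genes), and the median log2 fold change was -0.20. The lower genes came from the short networks of type VIII, the fibril-associated types XII, XIV and XXII and the beaded filaments of type VI. Without WT replicate 2, 4 were lower (7.92% of all tested genes) and the median was -0.10. These were *Col8a2*, *Col8a1*, *Col14a1* and *Col12a1*, none of them of type VI or XXII. Without *Tet2*-KO replicate 5, 9 were lower and 2 higher (14.6% and 13.4% of all tested genes). *Col8a2* and *Col8a1*, whose chains form the network of type VIII collagen beneath endothelium and in the vessel wall, had the smallest p of the lower collagen genes. *Col8a2* (ENSMUSG00000056174) ranged from 6.35 to 12.7 CPM (median 8.52) in WT mice and from 3.08 to 6.59 CPM (median 4.36) in *Tet2*-KO mice, where replicates 4 and 5 lay just above the lowest WT mouse. The log2 fold change was -0.89 (SE 0.213, adjusted p = 0.110 by edgeR). *Col8a1* (ENSMUSG00000068196) ranged from 9.20 to 17.4 CPM (median 11.2) in WT and from 4.65 to 9.88 CPM (median 7.40) in *Tet2*-KO mice, with only replicate 5 inside the WT range, and had a log2 fold change of -0.73 (SE 0.188, adjusted p = 0.112 by edgeR).

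Of the fibril-associated collagens, types XII and XIV decorate the surface of type I fibrils. *Col12a1* ranged from 45.9 to 99.6 CPM (median 57.8) in WT and from 26.7 to 57.7 CPM (median 30.2) in *Tet2*-KO mice, with 5 of 6 *Tet2*-KO mice below the lowest WT mouse and a log2 fold change of -0.83 (SE 0.240, adjusted p = 0.123 by edgeR). *Col14a1* was at 5.89 ± 1.97 and 3.12 ± 1.12 CPM (SD, n = 6 each), a log2 fold change of -0.92 (SE 0.244, adjusted p = 0.114 by edgeR). *Col22a1*, at 2.45 ± 0.549 CPM in WT mice (SD, n = 6), had a log2 fold change of -0.47 (SE 0.191, adjusted p = 0.167 by edgeR). The cartilage fibril-associated chains *Col9a3* and *Col9a2* had log2 fold changes of -0.12 (SE 0.133, adjusted p = 0.629 by edgeR) and -0.17 (SE 0.156, adjusted p = 0.539 by edgeR). Over the 9 fibril-associated genes the median was -0.22, with 3 lower and none higher at an unadjusted p below 0.05 (12.2% and 10.8% of all tested genes). Without WT replicate 2 the median was -0.08 and 2 were lower (7.92% of all tested genes).

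Type VI collagen forms beaded filaments between basement membranes and fibrils, and its 3 classical chains were lower at an unadjusted p below 0.05 with all mice and not without WT replicate 2. *Col6a1* ranked second of all collagen genes per kb of exon in both groups and ranged from 59.7 to 101 CPM (median 70.4) in WT and from 48.8 to 76.9 CPM (median 58.2) in *Tet2*-KO mice. Only 3 of 6 *Tet2*-KO mice lay below the lowest WT mouse, and its log2 fold change of -0.30 (SE 0.134, adjusted p = 0.206 by edgeR) was the closest to 0 of the 20 lower genes. *Col6a2* had a log2 fold change of -0.65 (SE 0.244, adjusted p = 0.160 by edgeR) and *Col6a3* of -0.62 (SE 0.263, adjusted p = 0.190 by edgeR). *Col25a1*, a transmembrane collagen of neurons, was the higher gene of the class. It ranged from 45.6 to 60.5 CPM (median 51.6) in WT mice and from 53.2 to 66.4 CPM (median 59.8) in *Tet2*-KO mice, overlapping from 53.2 to 60.5 CPM, with a log2 fold change of 0.18 (SE 0.069, adjusted p = 0.160 by edgeR). The summed level of 8 neuron markers was also higher, from 2959 to 4255 CPM in WT and from 3843 to 5167 CPM in *Tet2*-KO mice. Of the 8, 7 were higher at an unadjusted p below 0.05 (10.8% of all tested genes), and 4 without WT replicate 2 (7.37%). The part of neurons in the *Col25a1* value was not tested.

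The remaining 15 tested genes of the class had log2 fold changes between -0.44 and 0.23 (edgeR adjusted p between 0.237 and 0.930). *Col28a1*, a beaded filament collagen named because it was not tested, had 2 to 11 reads in a WT mouse and 9 to 17 in a *Tet2*-KO mouse. Without the expression filter its log2 fold change was 0.72 (SE 0.311, adjusted p = 0.268 by edgeR).

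Summed over the genes of a class, fibrillar collagen differed most between the groups. The fibrillar sum was 722 ± 237 CPM (SD, n = 6) in WT and 330.3 ± 192 CPM (SD, n = 6) in *Tet2*-KO mice, 2.18-fold higher in WT. The basement membrane sum was 330.0 ± 73.6 CPM and 207 ± 70.7 CPM (SD, n = 6 each), 1.6-fold higher in WT, and the sum of the other collagens 397.5 ± 64.5 CPM and 323 ± 42.5 CPM, 1.23-fold higher. Over all 44 genes the sum ranged from 1151 to 2146 CPM in WT and from 567 to 1369 CPM in *Tet2*-KO mice. *Tet2*-KO replicates 1 and 6 were the lowest mice, at 567 and 638 CPM, replicate 4 came next to the WT range at 1072 CPM, and replicate 5 lay inside it.

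**Figure D3:**
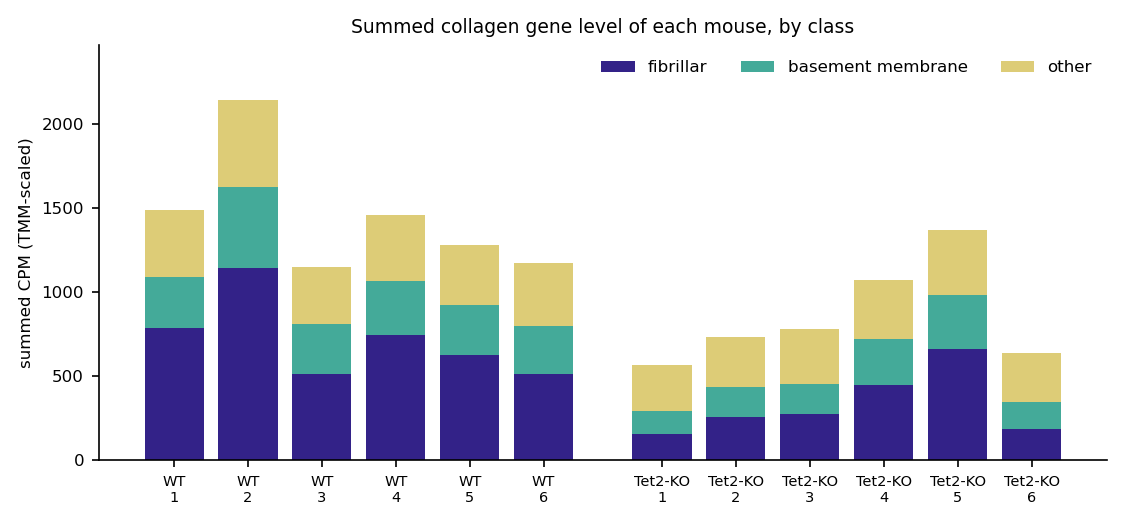
Summed CPM of the fibrillar, basement membrane and other collagen genes (stacked bars, y axis from 0) in each mouse. The whole bar was highest in WT replicate 2 at 2146 CPM and lowest in *Tet2*-KO replicate 1 at 567 CPM, and *Tet2*-KO replicate 5 at 1369 CPM lay within the WT mice.

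The make-up of the collagen transcripts is described without a test. Exon length counts every base in any annotated exon of a gene, 6.56 kb for *Col1a1* and 12.43 kb for *Col1a2*. Levels, ranks and shares per kb therefore depend on the annotation. Per kb of exon, the type I chains held 29.9 ± 3.88% (SD, n = 6) of all collagen in WT and 17.8 ± 7.40% (SD, n = 6) in *Tet2*-KO mice, and *Col3a1* 6.55 ± 0.920% and 3.19 ± 2.04% (SD, n = 6 each). The whole fibrillar class held 44.7 ± 4.19% and 31.7 ± 7.74%, and the basement membrane class 24.9 ± 1.88% and 25.5 ± 0.966% (SD, n = 6 each). The share of the other collagens was 30.4 ± 2.72% in WT and 42.8 ± 7.93% in *Tet2*-KO mice (SD, n = 6 each). Shares of a whole move against each other, so this larger share is no higher level. The CPM sum of the other collagens was lower in *Tet2*-KO mice, at 323 against 397.5 CPM. *Tet2*-KO replicates 1 and 6 had the smallest type I share, 10.3% and 10.9%, and replicate 5, at 29.0%, lay in the WT range of 25.3% to 34.5%. The 5 highest genes per kb were *Col1a1*, *Col1a2*, *Col4a1*, *Col4a2* and *Col6a1* in both groups.

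Ratios between chains within a mouse do not depend on the scaling and were compared for 11 pairs, by exact two-sided permutation tests in which the 12 mice were assigned to the groups in every possible way. None passed 0.05 after adjustment over the 11 pairs. *Col1a1* to *Col1a2*, which are partners in type I collagen, had a log2 ratio of 0.776 ± 0.077 (SD, n = 6) in WT and 0.725 ± 0.105 (SD, n = 6) in *Tet2*-KO mice, a difference of -0.05 (exact permutation p = 0.387, adjusted 0.516). The ratio spanned 0.368 over all 12 mice, while the log2 level of *Col1a1* spanned 3.62. *Col1a1* to *Col3a1* differed by 0.46 (exact permutation p = 0.0736, adjusted 0.135), with *Tet2*-KO replicate 1 highest at 2.88 and the WT mice between 1.10 and 1.34.

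The smallest p belonged to *Col4a1* over *Col4a2*, with log2 ratios from 0.135 to 0.415 in WT and from -0.096 to 0.208 in *Tet2*-KO mice. The difference was -0.22 (exact permutation p = 0.0108, adjusted 0.105), with 4 of 6 *Tet2*-KO mice below the lowest WT mouse. *Col5a2* to *Col5a1* differed by -0.58 (exact permutation p = 0.0346, adjusted 0.105), *Col18a1* to *Col15a1* by -0.64 (p = 0.0411, adjusted 0.105), *Col6a3* to *Col6a1* by -0.39 (p = 0.0476, adjusted 0.105) and *Col6a1* to *Col6a2* by 0.37 (p = 0.0238, adjusted 0.105). These 5 pairs and *Col1a1* to *Col3a1* passed 0.05 after adjustment when *Tet2*-KO replicate 4 or 5 was left out. Those mice lay in or above the WT range in 9 and 19 of the 20 lower genes, more than the rest of their group. Over all fits with 1 mouse left out, the largest adjusted permutation p of these pairs was between 0.202 and 0.266. *Col4a5* to *Col4a1* differed by -0.30 (exact permutation p = 0.0952, adjusted 0.150). The ratios of *Col8a1* to *Col8a2*, *Col11a1* to *Col11a2* and *Col9a3* to *Col9a2* differed by 0.17, -0.01 and 0.02 (exact permutation p between 0.422 and 0.965).

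**Figure D4:**
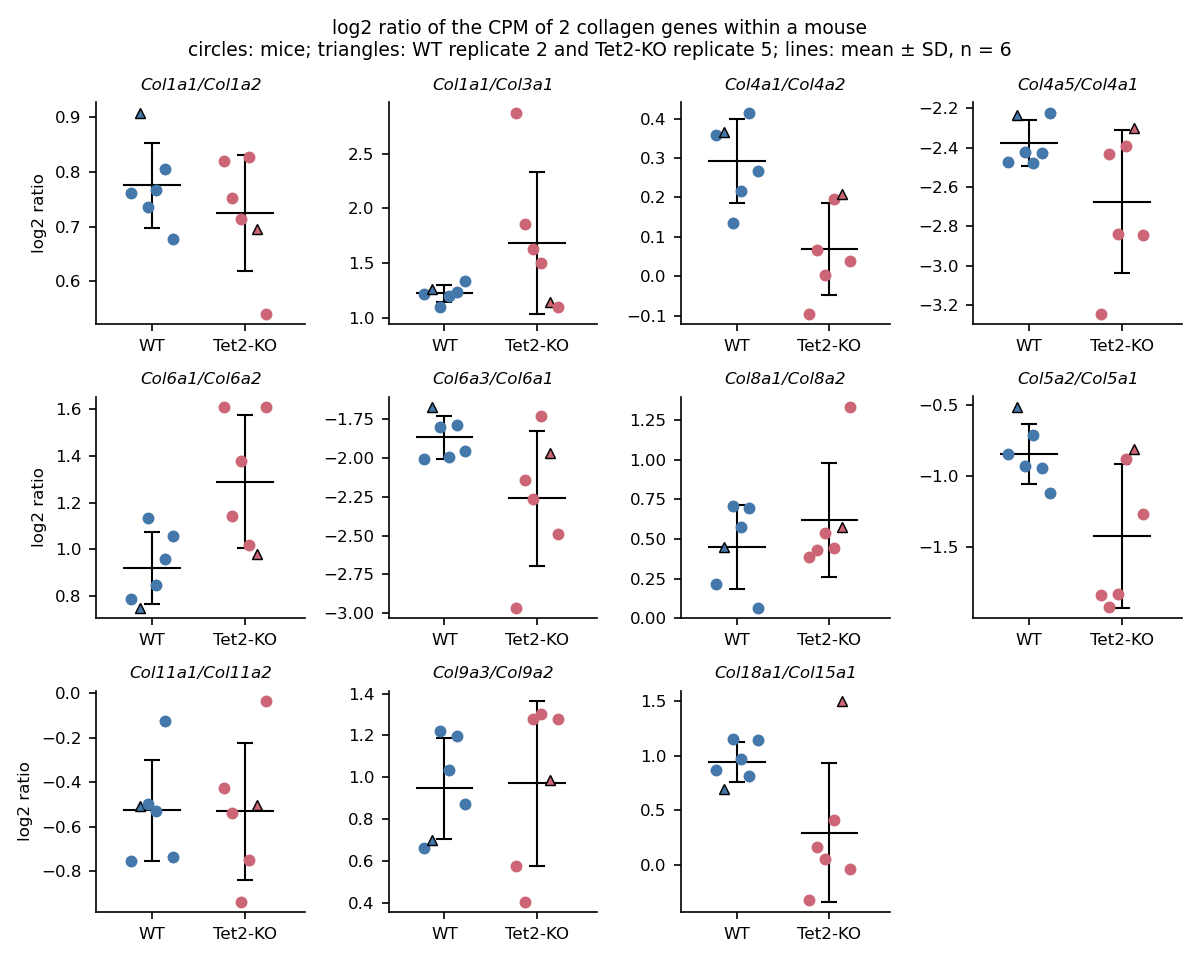
Log2 ratio of the CPM of 2 collagen genes within a mouse (y axis, own scale per panel) for 11 pairs, in 6 WT and 6 *Tet2*-KO mice with mean ± SD. The *Col4a1* to *Col4a2* ratio was between 0.135 and 0.415 in WT and between -0.096 and 0.208 in *Tet2*-KO mice, and the *Col1a1* to *Col1a2* ratio overlapped between the groups.

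Genes that make, trim, bind and cleave collagen were lower as well in many cases, and none passed the adjusted threshold with edgeR. The DESeq2 Wald test called 3 genes of folding and modification, 2 of propeptide removal and crosslinking, 1 receptor and 5 genes of breakdown as lower and none as higher (3.55% and 1.02% of all genes). Of 19 genes for folding and modification, 9 were lower and none higher at an unadjusted p below 0.05 (median log2 fold change -0.28), where 12.2% of all tested genes were lower and 10.8% higher. Without WT replicate 2, 5 were lower (7.92% of all tested genes). *Serpinh1*, the collagen chaperone HSP47, was at 55.9 ± 20.7 CPM in WT and 27.4 ± 10.7 CPM in *Tet2*-KO brains (SD, n = 6 each), a log2 fold change of -1.03 (SE 0.298, adjusted p = 0.123 by edgeR). *Crtap*, part of the prolyl 3-hydroxylase complex, had a log2 fold change of -0.70 (SE 0.170, adjusted p = 0.110 by edgeR), and *Mia2*, which acts in the export of large cargo from the endoplasmic reticulum, of -0.18 (SE 0.052, adjusted p = 0.121 by edgeR). With upper quartile scaling, 7 of the 19 were lower and 1 was higher at an unadjusted p below 0.05, against 10.5% and 14.8% of all tested genes.

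Of 13 genes for propeptide removal and crosslinking, 7 were lower and 2 were higher by the unadjusted threshold (median -0.42), against 12.2% and 10.8% of all tested genes. Without WT replicate 2, 5 of the 13 were lower and none higher, against 7.92% and 7.37% of all tested genes. The log2 fold changes of the 3 with the smallest p were -0.42 for *Adamts2* and -0.97 for *Adamts14*, both procollagen N-proteinases, and -0.97 for *Loxl1*, a crosslinking enzyme (edgeR adjusted p between 0.121 and 0.135). The higher genes, named after their values were seen, were *Adamts3* at 0.16 and *Pcolce2* at 0.20. Of 8 tested collagen receptors, 3 were lower and none higher by that threshold (median -0.27), against the same 12.2% and 10.8%, and 2 were lower without WT replicate 2 (7.92%). The 3 were *Ddr2*, which binds fibrillar collagen, at -0.70, *Itga1*, an integrin chain with affinity for type IV collagen, at -0.41, and *Mrc2*, which takes up collagen for lysosomal breakdown, at -0.84. *Gp6*, the collagen receptor of platelets, did not pass the expression filter.

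Among 9 genes of collagen breakdown and its inhibitors, 7 were lower and none higher at an unadjusted p below 0.05 (12.2% and 10.8% of all tested genes). Their median of -0.96 was the lowest of these lists, and 6 were lower without WT replicate 2 (7.92% of all tested genes). *Mmp13*, a collagenase of interstitial fibrils, ranged from 1.98 to 20.3 CPM in WT and from 0.0620 to 4.55 CPM in *Tet2*-KO mice, and 5 of 6 *Tet2*-KO mice lay below every WT mouse. Its log2 fold change was -3.35 (SE 0.734, adjusted p = 0.110 by edgeR). *Ctsk*, a lysosomal protease that cuts type I collagen, had a log2 fold change of -0.85 (SE 0.182, adjusted p = 0.110 by edgeR) and *Mmp9*, a gelatinase, of -0.95 (SE 0.237, adjusted p = 0.110 by edgeR).

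Marker genes of the cell types that brain tissue can hold were summed in each mouse. No marker of any list passed the adjusted threshold with edgeR, and the counts below are those at an unadjusted p below 0.05. Of all tested genes, 12.2% passed that level as lower and 10.8% as higher, or 7.92% and 7.37% without WT replicate 2. The fibroblast and meningeal markers summed to between 574 and 1022 CPM in WT and between 195 and 712 CPM in *Tet2*-KO mice, and 9 of the 11 tested of 12 genes were lower (5 without WT replicate 2). Its most abundant gene, *Igf2*, was at 371 ± 84.0 CPM in WT and 209 ± 119.8 CPM in *Tet2*-KO mice (SD, n = 6 each). *Tet2*-KO replicate 5 had the sum of 712 CPM, inside the WT range, and replicate 4 followed at 548 CPM. The lesion phagocyte markers summed to between 1043 and 2728 CPM in WT and between 61.2 and 1537 CPM in *Tet2*-KO mice, with 5 of 6 genes lower (3 without WT replicate 2), and replicate 5 again had the highest sum of its group. *Spp1*, its most abundant gene, was the 1 of the 6 that did not pass, at 519 ± 182 CPM in WT and 164 ± 271 CPM in *Tet2*-KO mice (SD, n = 6 each), where replicate 5 stood at 709.5 CPM (adjusted p = 0.280 by edgeR).

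The mural cell markers summed to between 383 and 519 CPM in WT and between 261 and 419 CPM in *Tet2*-KO mice (2 of 10 lower), where 4 of 6 *Tet2*-KO sums lay under the WT range, and the endothelial markers to between 277 and 335 CPM and between 262 and 321 CPM (2 of 8 lower). Choroid plexus markers summed to between 72.3 and 93.1 CPM and between 57.0 and 96.4 CPM (3 of 7 lower), microglia markers to between 562 and 1011 CPM and between 283 and 737 CPM (none of 6), and oligodendrocyte precursor markers to between 237 and 326 CPM and between 193 and 259 CPM (1 of 5). The astrocyte markers summed to between 5047 and 5197 CPM in WT and between 5015 and 5656 CPM in *Tet2*-KO mice, where 5 of 6 lay above the WT range and replicate 5 lay under it. None of the 6 was lower and 1 was higher, *Slc1a2*, the most abundant. It was at 4063 ± 192 CPM in WT and 4459 ± 235 CPM in *Tet2*-KO mice (SD, n = 6 each) and so made up most of the sum. The log2 fold change was below 0 in 3 of the 6 genes, and the median over the 6 was -0.01. No marker of these lists was at 0 in all mice.

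Set against these sums within a mouse, the fibrillar sum over the fibroblast and meningeal sum was between 0.769 and 1.26 (median 1.06) in WT and between 0.707 and 0.930 (median 0.809) in *Tet2*-KO mice, with 1 *Tet2*-KO mouse below the lowest WT mouse. The basement membrane sum over the endothelial sum was between 0.955 and 1.43 (median 1.04) in WT and between 0.503 and 1.01 (median 0.670) in *Tet2*-KO mice, with 5 of 6 *Tet2*-KO mice below the lowest WT mouse. Over the mural cell sum it was between 0.716 and 0.921 (median 0.774) in WT and between 0.495 and 0.757 (median 0.567) in *Tet2*-KO mice, again with 5 of 6 below the lowest WT mouse. Over the fibroblast and meningeal sum, the basement membrane sum was instead between 0.430 and 0.513 (median 0.478) in WT and between 0.446 and 0.704 (median 0.573) in *Tet2*-KO mice. The part of fibroblasts, phagocytes and other cells in the collagen values was not tested.

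**Figure D5:**
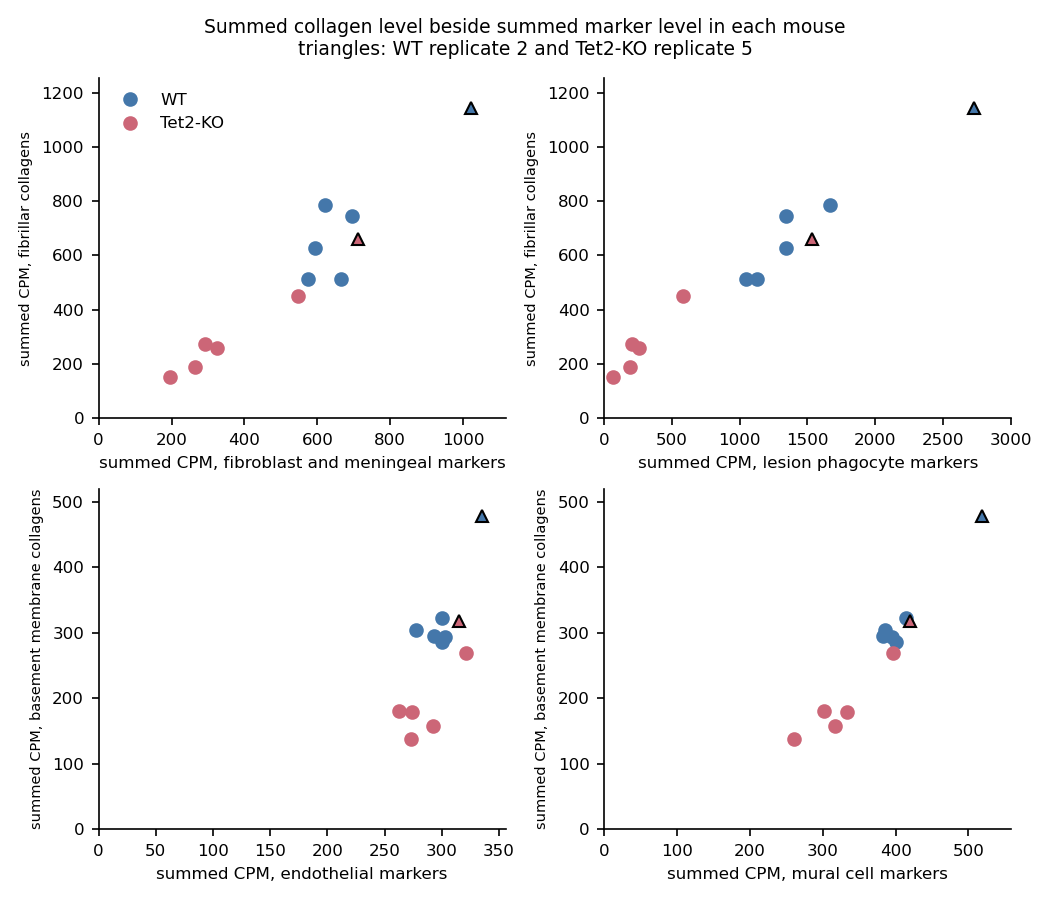
Summed CPM of fibrillar or basement membrane collagens (y axes) against the summed CPM of marker genes of fibroblasts and meninges, lesion phagocytes, endothelium and mural cells (x axes), 1 point per mouse. *Tet2*-KO replicate 5 (red triangle), with a fibroblast and meningeal sum of 712 CPM and a phagocyte sum of 1537 CPM, lies among the WT mice, and the other *Tet2*-KO mice lie lower on the fibrillar axis.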

How the data were processed

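Total RNA from the brains of 12 mice was depleted of ribosomal RNA and sequenced as read pairs. Per the labels and methods, the authors trimmed the reads with Trimmomatic 0.36, aligned them to mm10 with STAR 2.5.2b and used featureCounts (Subread 1.5.2) to count exonic reads with a unique position. The deposited values are these read counts per gene, not normalized, and no further columns of samples were present. The strand setting is not given in the sources used here. The study calls the tissue whole brain in its results and hemispheres elsewhere.

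Symbols, exon lengths and coordinates came from GENCODE M21 for 48970 of 49315 identifiers, and promoter windows from RefSeq (GRCm38.p6). The groups were compared with edgeR 4.0.16 after filterByExpr and TMM scaling (quasi-likelihood F test, robust, no covariates, R 4.3.3), with Benjamini-Hochberg adjustment over all tested genes and a threshold of 0.05. Standard errors are the log2 fold change over the square root of F. Chain ratios used 2 added counts. Alternatives were DESeq2 1.42.0, limma 3.58.1 (voom with quality weights), other scalings and filters, a block by replicate number and each mouse left out. Libraries of a group differed by more than sampling noise (chi-square per degree of freedom between 2.01 and 28.1) and counted as separate mice.

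Genes are named in the text for the smallest p or highest level per kb in a class, as chain partners, when higher or lower at an unadjusted p below 0.05, as the 3 smallest p of a pathway list, or as the most abundant marker of a list, and other names are said to be chosen after their values were seen or because of a rule stated beside them. The collagen genes, the pathway and marker lists and the tests were chosen with earlier results of these data known. The authors' comparison values were not used.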

Additional observations from a re-analysis of the deposited data

Results flagged for a closer look

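In 118 sets of 6 values, 2 groups each of the tested collagen genes, chain ratios and class sums, the gap between the most extreme mouse and its neighbour was compared with the range by Dixon's criterion at the 95% level, which chance exceeds in about 1 of 20 sets. The sets share mice and genes and are not independent, so a count of sets cannot be set against that rate. In 15 sets the criterion was exceeded. WT replicate 2 was the high mouse in 14 of these. Among basement membrane genes it stood at 159 CPM for *Col4a1*, 124 CPM for *Col4a2*, 82.2 CPM for *Col18a1*, 50.8 CPM for *Col15a1*, 33.8 CPM for *Col4a5* and 21.6 CPM for *Col4a6*. The next WT mouse had 112 CPM for *Col4a1* and 25.5 CPM for *Col15a1*. Among fibrillar genes it had 21.4 CPM for *Col27a1* and 12.8 CPM for *Col5a3*, and among other collagens 37.9 CPM for *Col16a1*, 31.6 CPM for *Col6a3* and 9.25 CPM for *Col7a1*. Its summed CPM was 2150 over all collagen genes, 478 over the basement membrane class and 522 over the other collagens. The remaining set was the log2 ratio of *Col8a1* to *Col8a2*, where *Tet2*-KO replicate 6 stood at 1.34 and the next mouse of its group at 0.57.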

How the results depend on the processing

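The number of collagen genes past an adjusted p of 0.05 was 0 with edgeR, against 0.0246% of all tested genes. With the DESeq2 Wald test the number was 8 (3.55% of all genes lower and 1.02% higher). After the edgeR filter (chosen after seeing the data) that test gave 9 (5.13% and 3.0%), and limma-voom gave 15 (7.01% and 2.91%). Without a filter on low counts the number was 1, where 40 of all 37685 genes passed as lower and 4 as higher. With 1 mouse left out the number was 16 without *Tet2*-KO replicate 5 (7.3% and 3.7%). Without any other mouse it was 0, where at most 11 of all tested genes passed as lower and 2 as higher. The cause was not tested. At an unadjusted p below 0.05, between 11 and 21 collagen genes were lower with each mouse left out, 11 without WT replicate 2. Of all tested genes, between 7.92% and 14.6% were lower in those fits. Collagen genes higher at that level numbered 1 with limma-voom, 4 without a filter and between 1 and 3 with each mouse left out. The shares of all tested genes were 12.3%, 7.03% and between 7.37% and 13.4%. Of the pathway genes 1 was higher with DESeq2, 1 with limma-voom and between 0 and 2 with each mouse left out. The DESeq2 Wald test had 5.72% of all genes higher at that level. The median log2 fold change of each class, the class sums and the direction of each collagen gene at an unadjusted p below 0.05 kept their sign under all alternatives run. Without WT replicate 2 the class medians were -0.29 (fibrillar), -0.48 (basement membrane) and -0.10 (other). Chain ratios differed, with each mouse left out, by 0.22 to 0.58 for *Col1a1*/*Col3a1*, -0.26 to -0.19 for *Col4a1*/*Col4a2*, 0.30 to 0.43 for *Col6a1*/*Col6a2*, -0.50 to -0.25 for *Col6a3*/*Col6a1*, -0.70 to -0.48 for *Col5a2*/*Col5a1*, -0.89 to -0.52 for *Col18a1*/*Col15a1*, -0.106 to 0.076 for *Col11a1*/*Col11a2* and -0.043 to 0.138 for *Col9a3*/*Col9a2*, the last 2 changing sign. The replicate numbers did not pair the mice (correlations of same-numbered mice between -0.17 and 0.23). With a replicate block 0 collagen genes passed, as did 0 of all tested genes. At an unadjusted p below 0.05, 20 collagen genes were then lower and 1 pathway gene was higher (11.9% and 9.48% of all tested genes). Low counts limit *Col28a1* and *Col9a1*, with at most 17 reads per mouse.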
